A study of Mus musculus with 10 samples.

Results

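The genes described here mark reactive astrocytes or belong to the acute-phase response. They are 9 genes taken by symbol from the deposited count table of 56691 genes: Gfap and Vim (intermediate filaments), Clu, Serpina3n, Lcn2 and Timp1 (secreted proteins), Cd44 (a surface receptor), and Cebpb and Cebpd (transcription factors). All 9 were found and all 9 passed the filter on low counts, as did 18440 genes in all. RNA came from the ventral tegmental area, a midbrain region rich in dopaminergic neurons, of male C57BL/6 mice labelled wild type. There were 5 control libraries without restraint and 5 libraries after 30 min of acute restraint, a stressor in which the animal cannot move. In both groups the sequenced RNA was ribosome-associated mRNA enriched through NBL10-HA, a tagged ribosomal protein expressed in the dopaminergic neurons. How the tag was delivered, the promoter that drove it, the age of the mice and whether each library came from 1 animal are not given in the sources used here, so p-values measure only the spread between these libraries.

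Astrocytes respond to injury, infection and cytokines by a change of state called reactivity, in which the filament genes Gfap and Vim rise and secreted acute-phase proteins such as Serpina3n and Lcn2 are made. The acute-phase response was first described in liver, where cytokines of the interleukin-6 family act through the receptor subunit gp130 (Il6st) and STAT3, and C/EBP proteins take part in switching on the genes of secreted defence proteins. In brain tissue GFAP is the classic protein used to see astrocytes under the microscope, and the strongly induced genes Lcn2 and Timp1 are widely used to mark the reactive state.

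The libraries held 56082358 to 86584968 counts. Values are CPM, counts scaled to the library total after TMM scaling, a correction for differences in library composition, and changes are log2 fold changes of restraint over control with their standard error from edgeR's quasi-likelihood test. The table came from ribosomes tagged in neurons, but astrocyte RNA was present in it. Per kilobase of exon, Gfap stood at 455 CPM in controls, against 174 CPM for Th, the gene of the rate-limiting enzyme of dopamine synthesis. The summed level of 15 markers of resting astrocytes, such as Aqp4, Slc1a2 and Aldoc, was 4804 to 5407 CPM in controls and 4977 to 5477 CPM after restraint, so the groups overlapped. In such RNA, fewer cells of a type and less RNA per cell cannot be told apart. Restraint 1 stood apart on the first principal component, at 92.1 against -19.2 to 4.08 for the other 9 libraries.

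The levels of the genes in controls spanned a wide range. Per kilobase of exon, the mean levels were 455 CPM for Gfap, 343 CPM for Clu, 118 CPM for Serpina3n and 16.02 CPM for Vim. Below these came Timp1 (10.6 CPM), Cd44 (3.07 CPM), Cebpd (2.87 CPM), Lcn2 (2.07 CPM) and Cebpb (1.80 CPM), also per kilobase. In this order, control libraries of neighbouring genes overlapped between Vim and Timp1, and between each neighbouring pair from Cd44 to Cebpb. The remaining neighbours were separate in every control library. Levels were divided by all exon bases. Of these, 20.7% in Cebpb, 15% in Cebpd and 3.00% in Cd44 are shared with a gene on the opposite strand. Reads that overlap both genes were not assigned, so the order among the lowest genes is uncertain.

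Each of the 9 genes had a positive log2 fold change after restraint, but 0 of 9 passed at an adjusted p under 0.05 with edgeR, where 0.0217% of all genes tested passed in either direction and 0.00542% passed as higher. By DESeq2, 2 of 9 passed as higher (Gfap and Serpina3n), against 0.754% of all genes. At an unadjusted p under 0.05 with edgeR, 5 of 9 were higher (Gfap, Serpina3n, Clu, Cebpd and Cebpb), against 5.64% of all genes. The median log2 fold change of the 9 was 0.37, against -0.00 over all genes, of which 9146 of 18440 were positive. Without restraint 1, the library that stood apart, 0 of 9 passed with edgeR, against 0.0107% of all genes. At an unadjusted p under 0.05, 6 of 9 were then higher, the sixth being Cd44, against 6.28% of 18775 genes. The genes were chosen with earlier results of these libraries known, so these counts are a description. The plots of CPM per library show that the genes fell into distinct patterns, described in turn below.

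**Figure D1:**
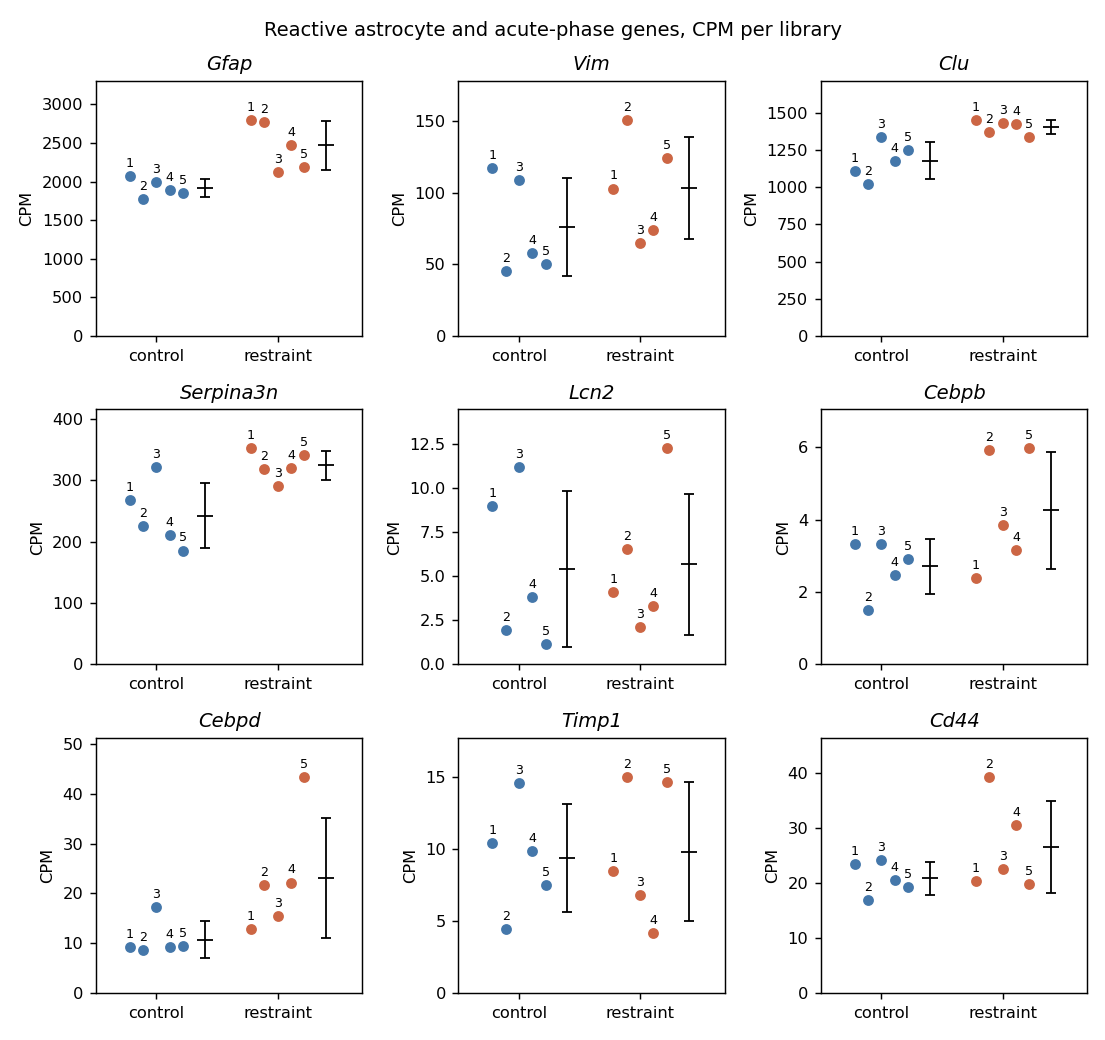
CPM of the 9 genes in each library (y axis, from 0), with controls in blue, restraint in orange and the replicate number above each point. Bars beside the points are the mean and SD of 5 libraries. Gfap is the gene whose groups do not overlap, while Vim, Lcn2 and Timp1 spread widely in both groups.

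Gfap encodes the main intermediate filament protein of mature astrocytes. It lies on the minus strand of chromosome 11, with exons between 102778162 and 102791738 in GRCm39. Its levels in controls 1 to 5 were 2077, 1770, 2000, 1887 and 1858 CPM. After restraint, libraries 1 to 5 held 2800, 2772, 2125, 2475 and 2185 CPM. Every restraint library was thus above every control, and restraint 1 and 2 were the highest. Gfap was the 1 gene of the 9 whose groups did not overlap, against 1.25% of all genes tested that were higher without overlap and 2.61% in either direction. A 1.29-fold higher mean level gave a log2 fold change of 0.37 ± 0.09 (edgeR p = 0.000556, adjusted p = 0.118; DESeq2 adjusted p = 0.0126; exact two-sided permutation p = 0.00794). That exact p is the smallest that 5 against 5 can give. When each library was left out in turn, the log2 fold change ran from 0.31 (without restraint 2) to 0.41 (without restraint 3).

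Vim, the other filament gene of reactive astrocytes, which endothelial and ependymal cells also express, behaved differently. Control levels were 117, 45.7, 109, 58.0 and 50.02 CPM in libraries 1 to 5, and restraint levels were 103, 151, 64.9, 73.9 and 125 CPM. Controls 1 and 3 lay above restraint 1, 3 and 4, so the groups overlapped broadly. The highest control was 2.57 times the lowest, a spread that in Gfap was 1.17 times. Its log2 fold change of 0.45 ± 0.26 did not pass (edgeR p = 0.108, adjusted p = 0.551; exact permutation p = 0.214), and it was 0.26 without restraint 2. Other filament genes listed as partners were Nes, Synm, Des, Sync and Plec. Of these, 0 of 5 reached an unadjusted p under 0.05 in either direction, against 11.7% of all genes. With 5 genes, a count of 0 does not set the list apart from other genes. The standard errors of Nes (0.26), Des (0.62) and Sync (0.50) were also wide, so these 3 genes say little about a change. Synm, which encodes a filament protein that assembles with GFAP and vimentin, had a log2 fold change of -0.03 ± 0.09.

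Clu encodes clusterin, a secreted chaperone and lipid carrier that astrocytes make at high levels. Control levels were 1110, 1020, 1339, 1176 and 1247 CPM, and restraint levels 1452, 1369, 1433, 1426 and 1338 CPM. The restraint libraries lay close together, with a coefficient of variation of 3.41% against 10.4% in controls. Control 3 alone reached into the restraint range, where it exceeded restraint 5 by less than 1 CPM. Clu had a log2 fold change of 0.25 ± 0.08 (edgeR p = 0.00419, adjusted p = 0.195; DESeq2 adjusted p = 0.0679; exact permutation p = 0.0159).

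Serpina3n encodes a serine protease inhibitor related to human alpha-1-antichymotrypsin and is a widely used marker of reactive astrocytes. Its levels were 268, 225, 322, 212 and 186 CPM in controls 1 to 5. After restraint they were 352, 318, 291, 320 and 341 CPM. All 5 restraint libraries exceeded 4 of the controls, and control 3 lay within the restraint range. The log2 fold change was 0.42 ± 0.12 (edgeR p = 0.00274, adjusted p = 0.177; DESeq2 adjusted p = 0.0324; exact permutation p = 0.0317), and it was 0.55 without control 3. Serpina3n belongs to a cluster of closely related genes on chromosome 12. Of the 50-base windows of its transcripts in GENCODE M21, 6.90% also occur in a transcript of another gene, so reads from these windows may not be counted. Of 10 relatives in the cluster, 4 passed the filter, and the highest of them, Serpina3g, had 1.97 ± 0.670 CPM in controls (SD, n = 5), under 1% of the level of Serpina3n.

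Lcn2 encodes lipocalin-2, a secreted protein that binds bacterial iron carriers and is among the most strongly induced genes of reactive astrocytes. Its control levels were 8.99, 1.94, 11.2, 3.82 and 1.15 CPM, and its restraint levels 4.13, 6.54, 2.15, 3.31 and 12.3 CPM. The highest control was 9.73 times the lowest, the widest control spread of the 9 genes. High and low libraries occurred in both groups, and the log2 fold change was 0.07 ± 0.52 (edgeR p = 0.890, adjusted p = 0.977; exact permutation p = 0.714). Its sign was negative without control 2, control 4, control 5 or restraint 5.

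Timp1 encodes a secreted inhibitor of matrix metalloproteinases. It had 10.4, 4.44, 14.6, 9.89 and 7.52 CPM in controls and 8.48, 15.03, 6.82, 4.19 and 14.6 CPM after restraint. The highest restraint libraries, 2 and 5, were level with control 3, and the lowest value of all was in restraint 4. Timp1 had a log2 fold change of 0.07 ± 0.32 (edgeR p = 0.824, adjusted p = 0.963; exact permutation p = 0.984), with a negative sign without control 2, control 5, restraint 2 or restraint 5 and with limma-voom and quality weights. Among listed enzymes and binding partners of Timp1, Cd44, Clu and Lcn2, 14 genes were measured. At an unadjusted p under 0.05, 2 of the 14 were higher, against 5.64% of all genes, and 0 were lower. They were Mmp14, a membrane-bound metalloproteinase (0.61 ± 0.17; edgeR adjusted p = 0.174, DESeq2 adjusted p = 0.0246), and Msn, whose protein links CD44 to actin (0.39 ± 0.16; edgeR adjusted p = 0.351). Slc22a17, reported as a receptor for lipocalin-2, had a log2 fold change of -0.16 ± 0.10, and Spp1, a ligand of CD44, one of 0.54 ± 0.33.

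Cd44 encodes a receptor for hyaluronan that reactive astrocytes carry on their surface. Control levels were 23.4, 16.8, 24.1, 20.5 and 19.2 CPM. Restraint levels were 20.4, 39.3, 22.6, 30.5 and 19.8 CPM. Restraint 2 and 4 were above all controls, while restraint 1, 3 and 5 lay within the control range. Cd44 had a log2 fold change of 0.35 ± 0.17 (edgeR p = 0.0541, adjusted p = 0.440; exact permutation p = 0.230), and 0.16 without restraint 2.

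Cebpd encodes C/EBP delta, a transcription factor induced early by inflammatory signals and glucocorticoids. It had the highest log2 fold change of the 9 genes. Control levels were 9.24, 8.56, 17.2, 9.33 and 9.35 CPM, and restraint levels were 12.9, 21.6, 15.4, 22.2 and 43.5 CPM. Control 3 stood far above the other controls, and restraint 5 far above the next restraint library. The groups overlapped through control 3 alone. The log2 fold change was 1.11 ± 0.27, a 2.16-fold higher level (edgeR p = 0.000814, adjusted p = 0.136; DESeq2 adjusted p = 0.0650; exact permutation p = 0.0238). It was 0.74 without restraint 5 and 1.35 without control 3. Of its exon bases, 15% are shared with Spidr on the opposite strand, and reads that overlap both genes were not assigned.

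Cebpb encodes C/EBP beta, a relative that acts in the acute-phase response and is regulated largely after transcription. Its levels were low, at 3.34, 1.503, 3.33, 2.47 and 2.91 CPM in controls and 2.39, 5.91, 3.86, 3.16 and 5.96 CPM after restraint. Restraint 2, 3 and 5 exceeded every control, while restraint 1 was lower than 4 of the 5 controls. Cebpb had a log2 fold change of 0.65 ± 0.27 (edgeR p = 0.0255, adjusted p = 0.339; exact permutation p = 0.127), and without restraint 5 it was 0.49. Of its exon bases, 20.7% are shared with Tmem189 on the opposite strand, and reads that overlap both genes were not assigned. Tmem189 had 25313 counts over all libraries, while Cebpb had 113 to 511 in each. Counting ignored strand, so opposite-strand reads outside the shared bases would count as Cebpb. Their part in its levels was not tested. Of 5 other genes listed under the family's name, 4 were measured and 1 was at an unadjusted p under 0.05, against 11.7% of all genes. That gene, Cebpz (0.28 ± 0.09; edgeR adjusted p = 0.221), carries the name but encodes a CCAAT-binding factor without the bZIP domain that defines C/EBP proteins. The 3 measured genes with that domain, Ddit3 (0.15 ± 0.11), Cebpg (-0.09 ± 0.08) and Cebpa (-0.23 ± 0.19), did not reach that p.

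**Figure D2:**
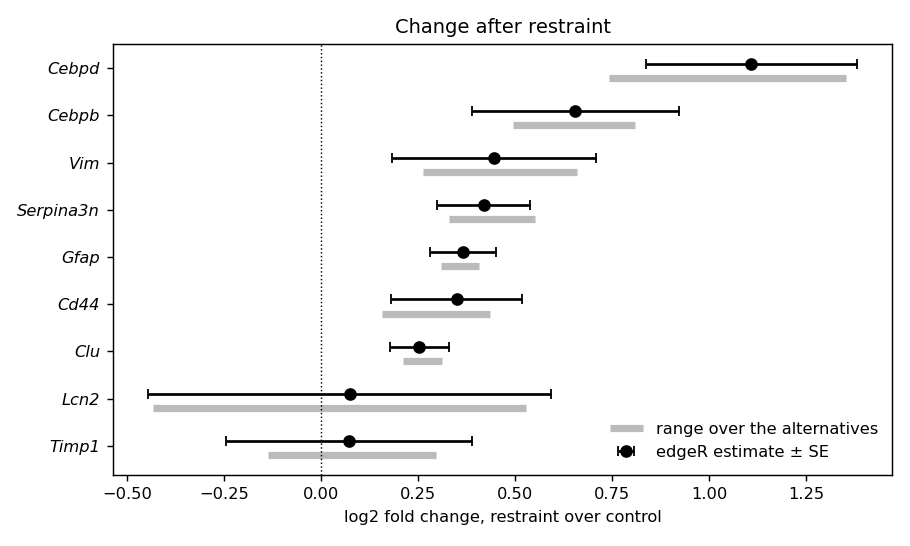
Log2 fold change of restraint over control (x axis) for each gene, with the edgeR estimate and its standard error in black and, in grey, the range over the 22 alternative settings and left-out libraries. The ranges of Lcn2 and Timp1 cross 0, and those of the other 7 genes do not.

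The libraries that were high for Vim were also high for Lcn2 and Timp1. The 4 highest libraries were the same for these 3 genes, namely control 1, control 3, restraint 2 and restraint 5, a set that took 2 libraries from each group. In these libraries Lcn2 was 6.54 CPM or more, against 4.13 CPM or less in the other 6. Libraries also differed in the slope of log2 level on log2 exon length, relative to the mean of all libraries. This slope was -0.0710 to -0.00265 in the same 4 libraries and -0.0281 to 0.0971 in the other 6. With the length trend removed, the log2 fold change was 0.44 ± 0.26 for Vim, 0.07 ± 0.50 for Lcn2 and 0.20 ± 0.26 for Timp1. The part of the slope in the pattern was not tested. Among all 36 pairs of the 9 genes, Vim with Lcn2 had the highest correlation of log2 CPM after the group means were removed (Pearson r = 0.896, Spearman rho = 0.879, n = 10 libraries; exact permutation within groups p = 0.00403 and 0.00639, adjusted over the 36 pairs 0.102 and 0.0958). Without control 1 and control 3, the libraries farthest from the median of Vim, r was 0.829. Vim with Timp1 gave r = 0.820 and rho = 0.830 (exact permutation p = 0.00569 and 0.00306, adjusted 0.102 and 0.0958; r = 0.841 without the same 2 libraries). Serpina3n with Lcn2 gave r = 0.825 and rho = 0.758 (exact permutation p = 0.0114 and 0.0363, adjusted 0.137 and 0.186), and 0.664 without control 3 and control 5. None of the 36 pairs passed after adjustment (0 at an adjusted p under 0.05). Of the r values over both groups, 35 of 36 were positive, but the groups differed in sign: in the 5 controls 36 of 36 pairs had a positive r, and in the 5 restraint libraries 13 of 36 had a negative one. Clu was in 7 of those 13 pairs, out of 8 pairs that hold it, and Gfap with Cebpd was another. With 5 libraries a group these signs are a description, and the difference between the groups was not tested.

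Gfap followed this pattern in part. Its highest r was with Vim, at 0.602 (rho = 0.636, n = 10; exact permutation p = 0.0674 and 0.0336, adjusted 0.242 and 0.186; r = 0.587 without restraint 3 and restraint 1). Its r with Lcn2 was 0.335 and with Cebpd -0.216 (n = 10; exact permutation p = 0.308 and 0.676, adjusted 0.555 and 0.766), and that of Clu with Vim was 0.140 (exact permutation p = 0.742, adjusted 0.809). The corresponding rho values were 0.382, -0.0788 and -0.00606 (exact permutation p = 0.262, 0.845 and 1, adjusted 0.589, 0.957 and 1). Without the 2 libraries farthest from the median of the first gene of each pair, which were restraint 1 and 3 for Gfap and control 1 and 3 for Vim, these r values were 0.281, -0.268 and -0.0280. Markers of microglia moved with the pattern of Vim, Lcn2 and Timp1: the summed level of 10 such markers was highest in the same 4 libraries, at 35.6 to 43.0 CPM, against 27.4 to 33.4 CPM in the other 6. All 10 had counts, none was at 0, and P2ry12, Cx3cr1 and Tmem119 had 1.41, 2.23 and 1.32 CPM in controls. Microglia were not alone in this. Control 3, restraint 2 and restraint 5 were also among the 4 highest libraries for the summed oligodendrocyte markers and for the summed ependymal markers. Control 1 was not among them for either sum. The part of these cell types in the pattern was not tested.

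**Figure D3:**
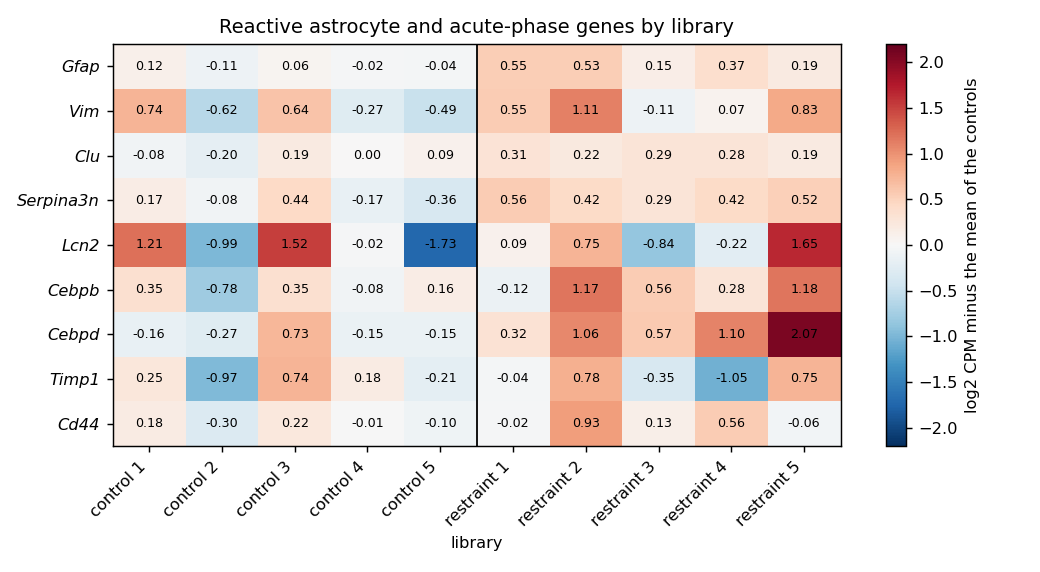
Log2 CPM of each gene in each library minus the mean of the 5 controls, as colour and number, with controls left of the line and restraint libraries right of it. Lcn2 runs from -1.73 in control 5 to 1.65 in restraint 5, and Gfap is positive in all 5 restraint libraries.

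**Figure D4:**
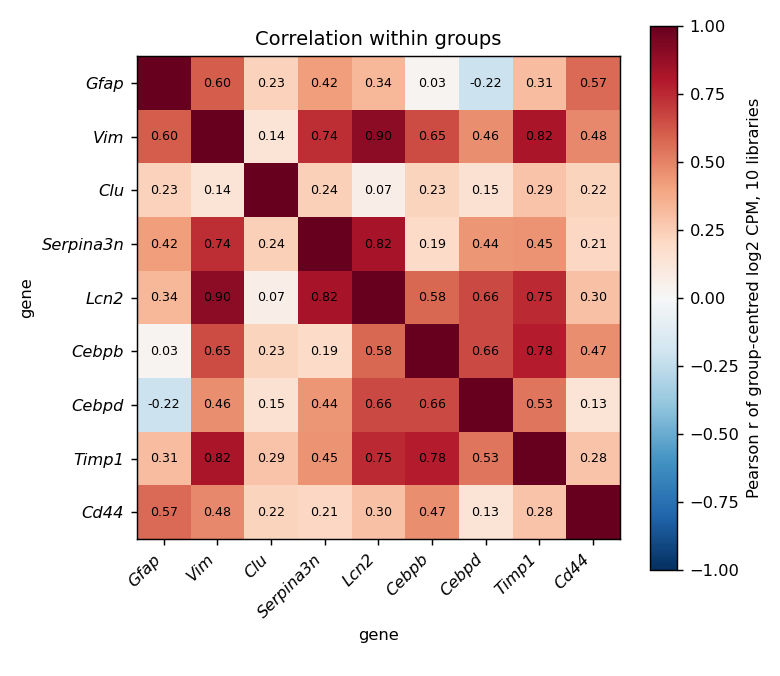
Pearson correlation of log2 CPM between each pair of the 9 genes over 10 libraries, after the mean of each group was subtracted. Vim, Lcn2 and Timp1 correlate with each other at 0.75 to 0.90, and Gfap and Cebpd at -0.22.

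Levels were also set against resting astrocyte RNA within each library. Clu was 21.2 to 25.7% of the summed resting astrocyte markers in controls and 26.2 to 27.1% after restraint, so its groups did not overlap on this scale, as was so for 0.352% of all genes tested in the higher direction. Gfap was 38.2 ± 2.07% in controls and 47.0 ± 5.30% after restraint (SD, n = 5), with restraint 3 (40.0%) below control 1 (41.8%). Serpina3n was 4.81 ± 0.873% and 6.18 ± 0.507%. The resting markers themselves had a median log2 fold change of -0.01, with 7 of 15 positive. At an unadjusted p under 0.05, 2 of 15 were higher, against 5.64% of all genes, and 0 were lower. Atp1b2, a sodium pump subunit of astrocytes, was one of them (0.28 ± 0.08; edgeR adjusted p = 0.170, DESeq2 adjusted p = 0.0367), and its groups did not overlap. Ntsr2, a neurotensin receptor of astrocytes, was the other (0.22 ± 0.10; edgeR adjusted p = 0.419). Aqp4 (0.22 ± 0.11) and Aldoc (-0.12 ± 0.07) lay above that p.

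Among other cell types that express these genes, vascular markers stood at 15.6 to 20.8 CPM in sum in controls and 17.3 to 27.1 CPM after restraint, with 9 of 10 positive and 3 higher at an unadjusted p under 0.05. Over all genes tested, 5.64% were higher at that p. Ependymal markers overlapped, at 43.8 to 54.2 and 41.0 to 52.7 CPM, with 1 of 5 measured genes higher at that p. The sums of 5 fibroblast and meningeal markers did not overlap, at 8.05 to 9.54 CPM in controls and 9.69 to 13.3 CPM after restraint, with 4 of 5 positive and 1 of 5 higher at an unadjusted p under 0.05 (Dcn, the matrix proteoglycan decorin, 0.64 ± 0.27). Taken singly, 0 of these 5 genes had groups that did not overlap, against 1.25% of all genes that were higher without overlap. No marker of these 3 lists was at 0 in all libraries. Dopamine neuron markers, the cells the tag was meant for, stood at 1047 to 1559 CPM in controls and 1244 to 1753 CPM after restraint, with 8 of 10 positive and 5 higher at an unadjusted p under 0.05. With DESeq2, 2 of these 10 passed as higher, against 0.754% of all genes. They were En1 (0.57 ± 0.11, edgeR adjusted p = 0.0662, DESeq2 adjusted p = 0.000338), whose groups did not overlap, and Foxa2 (0.46 ± 0.12, edgeR adjusted p = 0.144, DESeq2 adjusted p = 0.0178). Oligodendrocyte markers overlapped as well, with 3 of 8 higher at an unadjusted p under 0.05. With DESeq2, 1 of these 8 passed as higher (Ermn, adjusted p = 0.0483). The part of these cell types in the values of the 9 genes was not tested.

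Other genes of the reactive state were read from lists. Of 7 further pan-reactive genes, all 7 had a positive log2 fold change (median 0.40). At an unadjusted p under 0.05, 3 were higher, against 5.64% of all genes, and 0 passed with edgeR or DESeq2. The 3 were Osmr, the oncostatin M receptor (0.65 ± 0.20), Cp, the copper-binding ferroxidase ceruloplasmin (0.56 ± 0.20), and the chemokine gene Cxcl10 (0.40 ± 0.15). Cxcl10 is induced by interferons and stood at 128 ± 29.5 CPM already in controls (SD, n = 5). Of 13 reactive genes linked to inflammation, 10 were positive. At an unadjusted p under 0.05, 4 were higher and 2 lower, against 11.7% of all genes in either direction. With DESeq2, 2 passed as higher (Gbp2 and Iigp1), against 0.754% of all genes. Gbp2, an interferon-induced GTPase, had 42.5 ± 11.1 CPM in controls and 77.2 ± 23.4 CPM after restraint, with groups that overlapped. Its log2 fold change of 0.86 ± 0.20 passed with DESeq2 (adjusted p = 0.0367) but not with edgeR (adjusted p = 0.118). Iigp1, another such GTPase, had a log2 fold change of 0.50 ± 0.16 (edgeR adjusted p = 0.216, DESeq2 adjusted p = 0.0457), and its groups overlapped. Fbln5, a matrix protein gene, had one of -0.48 ± 0.16 (edgeR adjusted p = 0.235, DESeq2 adjusted p = 0.0962). Of 11 measured reactive genes linked to ischaemia, 6 were positive and 5 negative. With edgeR 0 reached an unadjusted p under 0.05, against 11.7% of all genes in either direction. With DESeq2 0 passed, against 1.8% of all genes. DESeq2 gave no adjusted p for some genes of this list, such as Tm4sf1 and Clcf1. The median of this list was 0.02.

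Most acute-phase genes of liver were barely present. Of 19 listed, 6 passed the filter on low counts, and Saa1, Saa2, Saa3, Orm1, Crp and Apcs were among those that did not. Of the 6, 2 were higher and 1 lower at an unadjusted p under 0.05, against 11.7% of all genes in either direction. The median log2 fold change of the 6 was 0.17. A2m, the protease inhibitor alpha-2-macroglobulin, went from 19.8 ± 3.78 to 29.0 ± 2.67 CPM, with groups that did not overlap (0.55 ± 0.12; edgeR adjusted p = 0.0893, DESeq2 adjusted p = 0.00349). The metallothionein genes Mt1 (0.43 ± 0.19) and Mt2 (-0.94 ± 0.37) had opposite signs, and neither passed with edgeR (adjusted p = 0.373 and 0.317). Their levels were far apart, at 577 ± 169 CPM for Mt1 and 3.85 ± 2.27 CPM for Mt2 in controls (SD, n = 5). The groups of both genes overlapped.

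The cytokine pathway upstream of these genes was read from 25 listed genes, of which 20 were measured. Il6, Osm, Cntf, Il1a and Tnf, which encode ligands, did not pass the filter. Other ligand genes, namely Lif, Il11, Clcf1 and Il1b, did pass it, at 3.30, 0.585, 0.425 and 0.331 CPM in controls. Of the 20, 3 were higher at an unadjusted p under 0.05, against 5.64% of all genes, and 0 were lower. The median log2 fold change was 0.06. The 3 were Nfkbia, an NF-kB inhibitor that NF-kB itself induces (0.75 ± 0.13; edgeR adjusted p = 0.0611, DESeq2 adjusted p = 2.94e-05), Osmr, and the interleukin-1 receptor gene Il1r1 (0.57 ± 0.23). Il6st, the shared receptor subunit gp130, had a log2 fold change of 0.18 ± 0.10, Stat3 one of 0.02 ± 0.09 and Socs3, its feedback inhibitor, one of 0.25 ± 0.20.

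**Figure D5:**
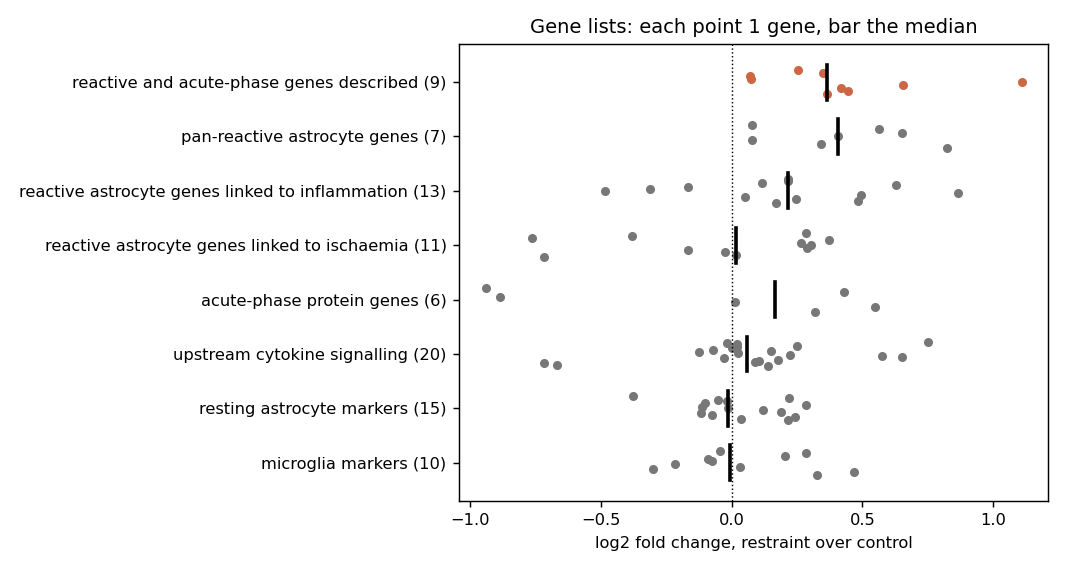
Log2 fold change of restraint over control for each measured gene of 8 lists (points), with the median of each list as a black bar and the number of measured genes in brackets. The 9 reactive and acute-phase genes and the 7 further pan-reactive genes lie to the right of 0 throughout, and the resting astrocyte and microglia markers lie on both sides. Among lists not drawn, 9 of 10 vascular, 8 of 10 dopamine neuron, 4 of 5 fibroblast and 4 of 4 Serpina3 cluster genes were positive. So were 5 of 8 oligodendrocyte, 3 of 5 ependymal, 2 of 4 oligodendrocyte precursor and 2 of 4 C/EBP family genes. Of the partner lists, 5 of 14 and 1 of 5 (filament genes) were positive.

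Promoter sequence was available for 7 of the 9 genes in RefSeq (GRCm38.p6), a different build from that of the count table. The 250 bases before each start were searched on both strands for 8 motifs. The STAT motif TTCNNNGAA was in 0 of the 7 windows, against 7.02% of 32851 promoter windows of the same length, and the AP-1 motif TGANTCA in 0 of 7, against 6.75%. A loose C/EBP motif, TTNCNNAA, was in 4 of 7 (Vim, Lcn2, Serpina3n and Timp1), against 36.8%. The CRE core TGACG was in 2 of 7 (Cebpb and Timp1), against 17.8%, and TATAAA in 1 of 7 (Vim), against 12.4%. The NF-kB consensus was in the window of Vim, against 3.90%, and the CArG box of serum response factor in 0 of 7, against 1.47%. The GC box GGGCGG was in 3 of 7 (Lcn2, Cebpb and Timp1), against 32.7%. Of the 18 matches, 1 pair overlapped, both GC boxes of Cebpb. A match is a description of letters and not a bound site, and the absence of one says only that the letters are not in this window.

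The 120 bases before the start are shown for 5 genes, namely the pair with the smallest edgeR p for which sequence was available (Gfap and Serpina3n), a pair from the group that varied together between libraries (Vim and Timp1), and the transcription factor gene Cebpb. The windows are chr11:102897201-102897320 on the minus strand for Gfap, chr12:104406588-104406707 on the plus strand for Serpina3n, chr2:13574191-13574310 on the plus strand for Vim, chr2:167688795-167688914 on the plus strand for Cebpb and chrX:20870046-20870165 on the plus strand for Timp1. Each is written 5′ to 3′ along the gene, and capitals mark matches on either strand to the C/EBP, CRE and TATA motifs above, while NF-kB and GC box matches stay in lower case.
Gfap: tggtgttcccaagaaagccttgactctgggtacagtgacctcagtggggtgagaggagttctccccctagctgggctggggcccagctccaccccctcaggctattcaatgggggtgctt
Serpina3n: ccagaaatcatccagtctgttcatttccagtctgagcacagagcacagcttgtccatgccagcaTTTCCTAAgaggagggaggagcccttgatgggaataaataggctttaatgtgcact
Vim: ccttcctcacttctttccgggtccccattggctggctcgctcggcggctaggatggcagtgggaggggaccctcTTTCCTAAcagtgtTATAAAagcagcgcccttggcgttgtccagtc
Cebpb: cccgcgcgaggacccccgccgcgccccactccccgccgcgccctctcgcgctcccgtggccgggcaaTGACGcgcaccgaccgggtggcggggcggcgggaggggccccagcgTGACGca
Timp1: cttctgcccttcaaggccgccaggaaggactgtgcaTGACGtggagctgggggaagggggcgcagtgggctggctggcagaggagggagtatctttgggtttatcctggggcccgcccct
The Gfap window held no match to any of the 8 motifs. Vim and Serpina3n carried the same 8 letters, TTTCCTAA, at -46 to -39 in Vim and -56 to -49 in Serpina3n, counted from the start. In Cebpb the CRE core lay at -53 to -49 and at -7 to -3 in the shown window, with another copy on the minus strand at -180 to -176.

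The genes most like each of the 9 within groups were found among 10917 genes with a mean of at least 5 CPM, by the Pearson correlation of group-centred log2 CPM over the 10 libraries. With so many genes and 10 libraries, high values arise for many genes, and these are descriptions without a test. For Gfap they were Eif3e (r = 0.942) and Ddx50 (0.913), for Clu Rnf111 (0.939) and Pmch (0.892), and for Serpina3n Slc22a4 (0.940) and Stam2 (0.907). For Vim they were Prdx3 (0.959) and Htatip2 (0.947). Lcn2 held rank 21 for Vim and 24 for Serpina3n, but rank 826 for Timp1. Timp1 was most like Gsn (0.977) and Nudcd2 (0.975), and 142 genes had an r over 0.9 with it, against 3 for Gfap. For Lcn2 the genes were Mrpl27 (0.945) and Hpgd (0.941), for Cd44 Antxr1 (0.932) and Mxi1 (0.918), for Cebpd Ppp2r3c (0.971) and Mff (0.951), and for Cebpb Dleu7 (0.977) and Nt5c3 (0.956).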

How the data were processed

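The deposited table holds whole-number read counts per gene and library. Per the file headers, the authors ran featureCounts 2.0.3 on exons of GENCODE M30, an annotation of GRCm39. The command sets the paired-end flag but no counting of pairs, strand or multi-mapping reads, so both mates count, on either strand, and multi-mapping reads do not. FastQC, Trimmomatic, STAR and the build mm10 are named without versions, per the submitters' processing notes. Coordinates are those of the table. Symbols came from GENCODE M21 by identifier. Exon lengths are the table's own.

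Genes were filtered with filterByExpr (count minimum 10, total minimum 15), scaled by TMM and tested with edgeR 4.0.16 (quasi-likelihood, group as the only term, R 4.3.3). Adjusted p-values (Benjamini-Hochberg, all genes tested) under 0.05 were called. Standard errors are the size of a log2 fold change divided by the root of its F. Log2 CPM used a prior count of 2. The scripts were tested on simulated data. Alternatives were other scalings, filters and tests (DESeq2 1.42.0, limma 3.58.1), a block for the replicate number, halved counts, removal of each library's length trend (lowess, span 0.3) and leaving out each library. Figures were drawn with Python 3.11.15.

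The genes and lists were chosen with earlier results of these data known. All 9 genes are named, as are up to 3 genes with the smallest p of each list, and the 2 genes most like each of the 9 among those with at least 5 CPM that are not predicted gene models. Listed genes named outside this rule (Slc22a17, Sync, Nes, Aldoc, Slc1a2, Th, Tmem119, Cebpg, Il6st, Stat3, Socs3, Lif, Il11, Clcf1, Il1b and the genes at or near 0) were named for their known roles. Correlations between genes used exact permutation within groups. Comparisons of levels with the resting astrocyte sum and of the highest libraries were added after the data were seen, as were the correlations, motifs and shared 50-base windows. The genes whose promoter is printed and the motifs in capitals were picked with the matches in view.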

Additional observations from a re-analysis of the deposited data

Results flagged for a closer look

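In 52 sets of 5 libraries that were checked, 4 held a library far from the other 4 by Dixon's ratio. Chance gives such a flag in about 1 of 20 sets. Cebpd in control 3 stood at 17.2 CPM, against 8.56 to 9.35 CPM in the other controls, and at 0.319% of the resting astrocyte marker sum, against 0.178 to 0.192%. Gfap in control 1 was 41.8% of that sum, against 36.8 to 38.2% in the other controls. The summed endothelial and pericyte markers in control 2 were 15.6 CPM, against 19.5 to 20.8 CPM.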

How the results depend on the processing

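Of the 9 genes, 7 kept a positive log2 fold change in all 22 alternatives. Lcn2 turned negative without control 2 (-0.14), control 4 (-0.04), control 5 (-0.19) or restraint 5 (-0.43), and was at most 0.53, without control 3. Timp1 turned negative with limma-voom and quality weights (-0.12) and without control 2 (-0.10), control 5 (-0.01), restraint 2 (-0.14) or restraint 5 (-0.13), and was at most 0.30 without 1 library, control 3. With edgeR, 0 of the 9 genes passed the threshold, and 5 were higher at an unadjusted p under 0.05, against 5.64% of all genes. The count of 0 became 2 with DESeq2 (Gfap and Serpina3n), against 1.8% of all genes. It became 2 with all genes that had at least 1 count (Serpina3n and Cebpd), against 0.928% of 32529 genes. It stayed at 0 without any 1 library. Over all genes, 4 passed with edgeR, 17 by library size only, 302 with at least 1 count, 331 with DESeq2, 87 with limma-voom and quality weights, 68 with the length trend removed, and 0 with robust estimation (2154 at an unadjusted p under 0.05). Without 1 library the count ran from 0 (without control 1, 2, 3 or 4, or restraint 3 or 4) to 92 (without restraint 5), with 2 without restraint 1, 17 without restraint 2 and 20 without control 5. The cause of these differences was not tested. Same-numbered libraries were not visibly alike: their deviations correlated at -0.16 to 0.03, and 0 libraries matched best with their own number. These values cannot exclude a pairing in the design. With the replicate block, edgeR called 0 genes (1704 had an unadjusted p below 0.05 in either direction). At such a p, 4 of the 9 were higher, against 4.28% of all genes. With halved counts the standard errors of Lcn2 (0.52 and 0.51) and Cebpb (0.27 and 0.27), whose lowest counts were 66 and 113, hardly moved, but halving by division adds no counting noise, so the part of depth in them was not tested.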
